A study of Mus musculus with 15 samples.

Results

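Cells differentiated for 6 days in RDL medium and sorted for GFP made under Pax3 were compared with undifferentiated mouse embryonic stem (ES) cells at day 0. The comparison took its members by label: 3 RDL day 6 arrays and 3 ES day 0 arrays, 6 of the 15 arrays in the series, all labelled as biological replicates. The p-values measure the spread between replicates, pooled over the groups of all 15 arrays. RDL day 6 cells came from the ES line CK35 (strain 129Sv), which carries GFP under Pax3. They were kept for 2 days in serum-free medium with BMP4 at 10 ng/ml and then moved to medium with 15% knock-out serum replacement. To this were added Rspo3, an agonist of Wnt signalling, at 10 ng/ml, LDN, which blocks BMP receptors, at 0.1 µM, and 0.5% DMSO. ES cells came from line E14 (strain 129P2) and were not sorted. Their medium held 15% fetal bovine serum, LIF at 1500 U/ml, the GSK3 inhibitor CHIRON99021 and the MEK inhibitor PD0325901. Stocks were maintained on mouse embryonic fibroblast feeders, and a single feeder-free passage on gelatin preceded differentiation; the labels do not say on which side of it the day 0 RNA was taken. Further groups of 3 arrays place the RDL day 6 cells: CDL day 6 (the same line, day and sort, with 1 µM CHIR in place of Rspo3), and RDL day 4 (line E14, the same medium, sorted for a reporter of Msgn1). Day, line, strain, medium and sort all differed between RDL day 6 cells and ES cells, and their parts cannot be told apart. The titles and protocols describe differentiation toward presomitic mesoderm, and no question beyond the comparison of groups is taken from them here.

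Paraxial mesoderm is the tissue on both sides of the neural tube that segments into somites. Its cells leave the primitive streak and tail bud, pass through the presomitic mesoderm under Wnt and FGF signalling, where Msgn1 and Tbx6 are active, and form somites in a rhythm set by Notch signalling. Somites then split into the dermomyotome, which is marked by Pax3 and gives muscle and dermis, and the sclerotome, which is marked by Pax1 and Pax9 and gives vertebrae and ribs. ES cells in medium with LIF and both inhibitors hold the naive state of the early epiblast, with a network of transcription factors built round Pou5f1, Sox2 and Nanog.

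Each array gave 1 linear signal intensity per probe set, and a gene was read from its brightest probe set with a single symbol. Array medians lay between 29.4 and 31.2. RDL day 6 replicate 1 stood apart, with the lowest mean correlation with its group mates (0.978) of all 15 arrays. It also had the highest 3' to 5' actin ratio, 1.90, against 1.60 in replicate 2 and 1.55 in replicate 3. On the ES arrays this ratio ran from 1.77 to 1.85, above RDL day 6 replicates 2 and 3. In RDL day 6 replicate 1, 207 genes lay at least 1 log2 unit from the mean of replicates 2 and 3, 198 of them lower. No gene (0) differed that far between replicates 2 and 3. CDL day 4 replicate 1 is in neither group of any comparison of groups made here. It enters the shared spread, the choice of genes tested and of probe sets, the added constant and the split of lines below. Over 35 genes bright in ES cells alone the median signal of CDL day 4 replicate 1 was 19.7% of that in ES cells. It was 1.05% to 1.16% in the RDL day 6 arrays, and the standard errors of such genes are wide. The 35 genes were chosen as dim over the other sorted arrays, RDL day 6 included, so low shares there follow from the choice. CDL day 4 replicate 1 had no part in that choice. The median SD between replicates on the log2 scale was 0.153 in RDL day 6 cells and 0.0799 in ES cells. The number of arrays limits the precision throughout.

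Signals were compared as log2(signal + 12.6), where the constant keeps dim probe sets from giving large differences and makes the difference of a gene with one dim side smaller than its ratio of signals. All differences below are on this scale with the standard error (SE) of a limma fit over the 15 arrays, and a gene was called at an adjusted p under 0.05. Of 12409 genes tested, 3513 (28.3%) were higher and 4133 (33.3%) lower in RDL day 6 cells than in ES cells, with 8016 at an unadjusted p under 0.05. At least 2-fold differences were found in 1283 genes upward (10.3%) and 1454 downward (11.7%). The 3 RDL day 6 arrays did not overlap the 3 ES arrays in 30.8% of genes upward and 36.4% downward. The median difference over all genes was -0.04. Of the genes at least 2-fold higher, 357 (27.8%) lay below the median of each ES array, and of those at least 2-fold lower, 403 (27.7%) lay below the median of each RDL day 6 array. A gene bright in 1 group alone can pass the filter only through that group, which largely fixes its direction. This held for 527 tested genes with the ES arrays, 464 of them lower, and for 106 with the RDL day 6 arrays, 71 of them higher. Outside the pluripotency and germline lists, the list members named were Foxd3, Ttn, Hoxc13, Dnmt3l, Cox7a1, Bhmt, Bhmt2, Tubb3, Tek and Pecam1 with the ES arrays. With the RDL day 6 arrays they were Fgf5, Epha3, Lum, Sox17 and Nkx2-5. The list counts below are of tested members, and each list's dim members are left out of them. Against ES cells they stand beside the shares over all genes tested, 28.3% higher and 33.3% lower. Without RDL day 6 replicate 1 and CDL day 4 replicate 1, 3657 genes were higher and 4176 lower, and the counts of the lists moved by at most 2 members each way.

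The largest increases were in Igf2, Col3a1 and Igfbp5. Igf2, an imprinted fetal growth factor, had signals of 8989, 10229 and 10252 in RDL day 6 cells, against 42.8, 36.0 and 42.6 in ES cells, a difference of 7.53 ± 0.13 (limma adjusted p = 7.4e-16). Col3a1, a fibrillar collagen chain, had 6094, 7013 and 7276 in RDL day 6 cells, against 32.1, 32.2 and 27.3 in ES cells (7.30 ± 0.12). Igfbp5, which binds IGF proteins, had 2908, 5499.8 and 4978 in RDL day 6 cells, against 24.4, 29.01 and 39.4 in ES cells (6.65 ± 0.22). In all 3 genes the dimmest RDL day 6 array was replicate 1, and even this array was far above every ES array. Cdh11, a cadherin of mesenchyme, had 1860.4, 2116 and 2228 in RDL day 6 cells, against 10.2, 8.79 and 10.1 in ES cells (6.54 ± 0.11). Next came Ptn, a heparin-binding growth factor, at 6.33 ± 0.17, and Arg1, which splits arginine, at 6.21 ± 0.09. The sphingosine 1-phosphate receptor gene S1pr3 followed at 6.20 ± 0.13, the imprinted gene Nnat at 5.99 ± 0.12 and the orphan nuclear receptor gene Nr2f1 at 5.97 ± 0.18. Egr1, an immediate early transcription factor, differed by 5.93 ± 0.17, Fndc3c1 by 5.91 ± 0.15 and the chemokine gene Cxcl12 by 5.91 ± 0.23.

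At the other end stood Nanog, with 39.7, 20.1 and 29.98 in RDL day 6 cells, against 6343, 6313 and 5958 in ES cells (-7.22 ± 0.83, limma adjusted p = 1.4e-06). The naive factors Zfp42 (-6.94 ± 0.74) and Tfcp2l1 (-6.85 ± 0.79) and the growth factor gene Fgf4 (-6.71 ± 0.25) were in the same group. Rpl39l, a gene copy related to the ribosomal protein gene Rpl39, differed by -7.13 ± 0.93, and probes of such copies can share signal. Morc1, which silences retrotransposons in male germ cells, differed by -6.80 ± 0.79, and the homeobox gene Crxos by -6.80 ± 0.77. Trap1a (-6.45 ± 0.67), the oocyte gene Ooep (-6.34 ± 0.69) and Bhmt (-6.33 ± 0.62), which remethylates homocysteine, came next. Dppa2 (-6.32 ± 0.42) and L1td1 (-6.30 ± 0.50), both genes of pluripotent cells, closed the group of 12. The mean RDL day 6 signals of these 12 genes lay between 6.01 and 31.9. Rpl39l, Crxos and Trap1a lay below the array medians on every sorted array except CDL day 4 replicate 1. They thus passed the filter only with the ES arrays, which largely fixed their direction, as for Tfcp2l1, Morc1 and Bhmt. Of 17 further probe sets for 11 of the 24 genes, 15 gave the same direction and 12 of these at least 1 log2 unit. A second Igf2 probe set averaged 60.6 in RDL day 6 cells and 13.99 in ES cells, and a second Igfbp5 probe set 211 in RDL day 6 cells and 131 in ES cells (0.64). Averaged over their probe sets, the differences were 4.48 for Igf2, 3.65 for Igfbp5 and -4.24 for Fgf4.

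**Figure D1:**
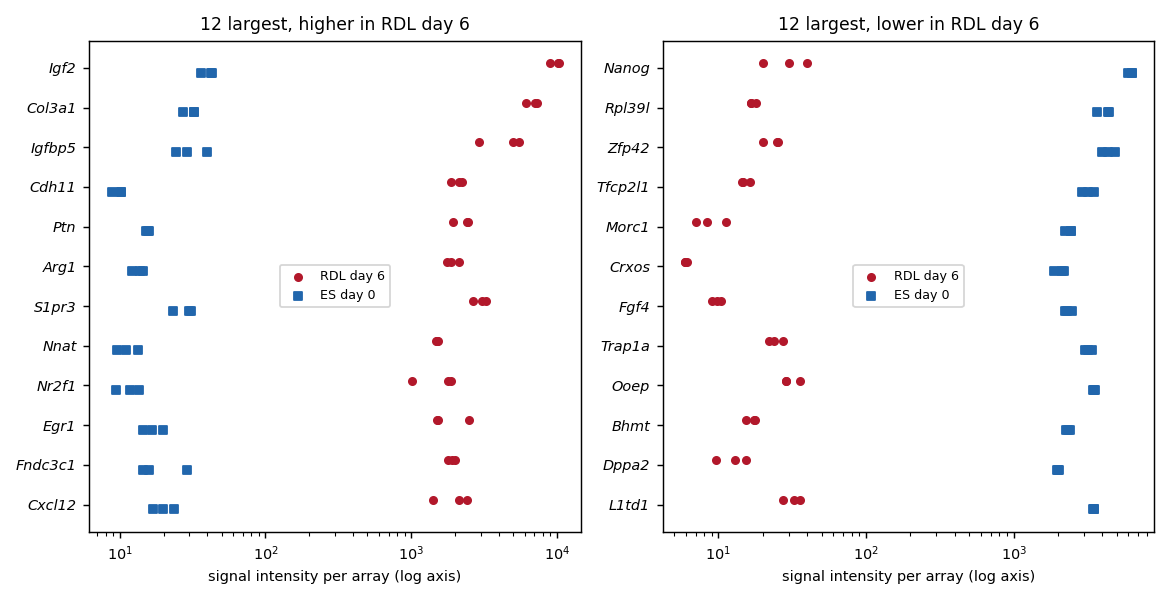
Signal intensity on each of the 3 RDL day 6 arrays (circles) and 3 ES day 0 arrays (squares), on a log axis, for the 12 genes with the largest differences each way. In every gene shown the arrays of one group lie apart from those of the other, with Igf2 between 8989 and 10252 in RDL day 6 cells and Nanog between 5958 and 6343 in ES cells.

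The pluripotency list was lower in RDL day 6 cells in 25 of 26 tested members and higher in 1, with a median difference of -4.78 against -0.04 over all genes. Of these members 6 (Esrrb, Tfcp2l1, Nr0b1, Tcl1, Prdm14 and Gdf3) passed the filter only with the ES arrays. Pou5f1, the central factor of the network, had 28.1, 23.1 and 28.6 in RDL day 6 cells, against 2702, 2753 and 3269.9 in ES cells (-6.22 ± 0.30, limma adjusted p = 7.5e-11). Its RDL day 6 values sat below the array medians. Tdgf1 (-5.89 ± 0.42), which encodes a Nodal co-receptor, Esrrb (-5.66 ± 0.60) and Nr0b1 (-5.68 ± 0.53), both nuclear receptors, and Prdm14 (-4.77 ± 0.41) were lower too. In a bulk sample fewer cells of a type and less RNA per cell cannot be told apart.

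Some pluripotency genes kept clear signal at day 6. Dppa5a had 566, 268 and 364 in RDL day 6 cells, against 12579, 12661 and 12478 in ES cells (-4.997 ± 0.38). Sall4, a zinc finger factor, had 442, 864 and 906 in RDL day 6 cells, against 2118, 2083 and 2352 in ES cells (-1.62 ± 0.22). Sox2, which neural progenitors also use, had 61.3, 213 and 192 in RDL day 6 cells, against 3781, 3700.1 and 2886 in ES cells (-4.52 ± 0.76), with replicate 1 the lowest of all 6 arrays. Klf4 differed by -4.05 ± 0.25, and its RDL day 6 arrays at 91.4, 114 and 161 were still above their medians. The 1 member called higher was Lin28a, which blocks let-7 maturation, with 494, 246 and 282 in RDL day 6 cells, against 172, 173 and 189 in ES cells (0.83 ± 0.34, limma adjusted p = 0.046). Replicate 1 held the highest of these values, and the count of higher members was 0 without it and also 0 with no filter.

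Of 9 primed epiblast genes 3 were higher and 3 lower, near the 28.3% and 33.3% over all genes tested. Otx2, which is used by the epiblast and the anterior head, had 184, 176 and 216 in RDL day 6 cells, against 124, 129.6 and 104.8 in ES cells (0.63 ± 0.24). Fgf5, a growth factor of the primed state, had 51.8, 49.7 and 60.7 in RDL day 6 cells, against 7.67, 5.89 and 5.87 in ES cells (1.80 ± 0.09). Cer1, a secreted antagonist of Nodal and BMP, had 219, 206 and 216 in RDL day 6 cells, against 47.4, 43.5 and 34.3 in ES cells (2.06 ± 0.14). In each of these genes the RDL day 6 arrays lay above the ES arrays. The de novo DNA methyltransferase gene Dnmt3b was lower (-1.20 ± 0.17), as were Foxd3 (-1.03 ± 0.13) and Pim2 (-0.91 ± 0.13).

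Germline genes are known to be active in naive ES cells at low DNA methylation and silent in somatic cells. Of 14 tested members 12 were lower in RDL day 6 cells and 1 higher, with a median of -2.60. The filter bears on this count, since 8 of the 14 (Dazl, Sycp3, Mael, Stk31, Morc1, Hormad1, Stag3 and Smc1b) passed it only with the ES arrays. With no filter, all 20 members with a probe set gave 17 lower and 1 higher with a median of -1.78, which ran from -4.15 to -1.52 over all settings. Beside Morc1, Dazl, an RNA-binding protein of germ cells, had 7.78, 6.93 and 7.85 in RDL day 6 cells, against 501, 527 and 272 in ES cells (-4.41 ± 0.37), with ES replicate 3 at the low end of its group. Sycp3, a part of the synaptonemal complex of meiosis, had 7.09, 7.17 and 6.63 in RDL day 6 cells, against 168, 176 and 139 in ES cells (-3.14 ± 0.13). Hormad1, another protein of meiotic chromosome axes, had 6.001, 5.40 and 5.45 in RDL day 6 cells, against 81.6, 94.4 and 69.1 in ES cells (-2.36 ± 0.14). The RDL day 6 values of these genes all lay below 12.6, the median of the arrays' 25th percentiles. Mael, a piRNA pathway protein, had 5.61, 6.04 and 5.26 in RDL day 6 cells, against 45.5, 63.9 and 66.8 in ES cells (-1.95 ± 0.09). Tex19.1 (-4.27 ± 0.29), Stk31 (-2.95 ± 0.14) and the X-linked homeobox gene Rhox5 (-2.83 ± 0.25) were lower too, and 6 further members, Sycp1 and Taf7l among them, were too dim to be tested. The 1 higher member was Tdrkh (0.74 ± 0.12), and Asz1 was not called (-0.20 ± 0.11).

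A Polycomb complex known to repress many germline promoters, whose binding was not measured here, contains Mga with Max, which bind the E-box CACGTG, and E2f6, which binds sites with TCCCGC. Of the 11 germline members at least 2-fold lower, 9 had a promoter in the RefSeq table (GRCm38.p6, 250 bases before to 50 after the start), with 11 start sites in all. At a start site of 6 of these 9 genes the window held CACGTG, at 6 it held TCCCGC on either strand, and at 5 both. Of all 32851 promoters of the table, CACGTG stood in 2349 (7.15%), TCCCGC in 6562 and both in 655 (1.99%), and of the 12795 promoters of the tested genes the shares were 9.94%, 34.8% and 3.77%. CpG counts ran from 15 to 38 per window in 8 of the genes and stood at 5 in Rhox5, against a median of 7 over all promoters. The 3 windows below are shown because both motifs stand in them, in capitals, TCCCGC also as its reverse complement GCGGGA. They lie at chr10:88459337-88459636 (plus strand) for Sycp3, chr1:166238695-166238994 (minus strand) for Mael and chr3:95559427-95559726 (plus strand) for Hormad1.
Sycp3: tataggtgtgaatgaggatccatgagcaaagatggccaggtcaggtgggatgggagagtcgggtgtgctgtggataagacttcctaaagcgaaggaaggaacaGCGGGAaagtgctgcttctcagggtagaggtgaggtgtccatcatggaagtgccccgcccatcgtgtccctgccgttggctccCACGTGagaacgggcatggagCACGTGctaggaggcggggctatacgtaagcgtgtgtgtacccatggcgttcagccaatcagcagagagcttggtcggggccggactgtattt
Mael: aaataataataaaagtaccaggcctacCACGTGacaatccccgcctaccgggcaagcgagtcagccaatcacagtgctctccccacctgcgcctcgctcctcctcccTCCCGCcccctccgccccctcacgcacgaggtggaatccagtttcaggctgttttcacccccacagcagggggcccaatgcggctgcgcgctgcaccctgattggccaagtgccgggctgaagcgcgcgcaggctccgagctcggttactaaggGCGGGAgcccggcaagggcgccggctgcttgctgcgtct
Hormad1: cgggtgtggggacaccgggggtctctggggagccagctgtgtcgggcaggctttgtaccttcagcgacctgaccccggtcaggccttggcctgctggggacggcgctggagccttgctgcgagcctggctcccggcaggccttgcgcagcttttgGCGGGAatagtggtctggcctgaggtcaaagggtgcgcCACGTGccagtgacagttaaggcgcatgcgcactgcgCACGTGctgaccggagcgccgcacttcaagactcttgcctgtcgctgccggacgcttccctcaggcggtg
Sycp3 and Hormad1 each held CACGTG at 2 places and Mael at 1, while GCGGGA or TCCCGC stood once in Sycp3 and Hormad1 and at 2 places in Mael. The counts are of genes with a match at any start site, whereas the shares over the table are of single promoters. Among these genes Dazl, Sycp3, Mael, Stk31, Hormad1 and Stag3 passed the filter only with the ES arrays, which largely fixed their direction. Promoters of germline members that were not lower were not searched. These are matches of letters, no binding was measured, and a part of this complex in the differences was not tested.

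Enzymes of DNA methylation were lower in 5 of 8 tested members and higher in 2. Dnmt3l, a cofactor of de novo methylation, had 18.1, 19.9 and 17.6 in RDL day 6 cells, against 453, 429.7 and 469 in ES cells (-3.90 ± 0.32). The oxidases Tet1 (-2.79 ± 0.22) and Tet2 (-2.69 ± 0.34) were lower, as was Uhrf1 (-1.01 ± 0.13), which guides maintenance methylation. Dnmt3a was higher (0.72 ± 0.14), and the maintenance enzyme Dnmt1 was not called (-0.28 ± 0.18).

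Glycolysis and one-carbon genes were mostly lower, and cholesterol synthesis genes mostly higher. In glycolysis 13 of 17 members were lower and 1 higher, with a median of -0.70. Pfkp, a phosphofructokinase subunit, had 36.1, 35.04 and 37.3 in RDL day 6 cells, against 1178, 1074 and 1079 in ES cells (-4.53 ± 0.37). Hk2, the inducible hexokinase, had 212, 284 and 250.4 in RDL day 6 cells, against 1464, 1449 and 1531 in ES cells (-2.52 ± 0.17). Every array of RDL day 6 cells was below every ES array in both genes. Ldhb, a lactate dehydrogenase subunit, differed by -2.06 ± 0.12 and the glucose transporter gene Slc2a3 by -1.43 ± 0.24, while the muscle enolase gene Eno3 was higher (1.96 ± 0.12). One-carbon and threonine enzymes were lower in 8 of 12, among them Bhmt2 (-4.43 ± 0.25) and Gldc (-2.99 ± 0.19), and the serine synthesis gene Phgdh was higher (0.76 ± 0.07). In the respiratory chain 6 of 24 were higher and 6 lower (4 and 8 without RDL day 6 replicate 1), against 28.3% and 33.3% over all genes tested. The largest difference was that of the tissue-specific subunit Cox7a1 (-4.55 ± 0.39), which passed the filter only with the ES arrays. Cholesterol synthesis genes were higher in 10 of 13 and lower in 0, by small amounts, with a median of 0.41. Hmgcs1, an early enzyme of the pathway, had 3887, 4164 and 4293 in RDL day 6 cells, against 2197, 2150.2 and 2180.1 in ES cells (0.91 ± 0.06).

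Cell cycle genes differed in both directions. Among replication and mitosis genes 10 of 21 were lower and 3 higher, against 33.3% lower and 28.3% higher over all genes tested. Mcm3, part of the replicative helicase, had 1282, 1335 and 1266 in RDL day 6 cells, against 2945, 2907 and 2931 in ES cells (-1.17 ± 0.08). Ccnd2, a D-type cyclin that ES cells barely use, had 1143, 2016 and 1994 in RDL day 6 cells, against 19.5, 24.7 and 29.8 in ES cells (5.50 ± 0.18), whereas Ccnd3 was lower (-1.14 ± 0.12) and Ccnd1 was not called (-0.15 ± 0.12). Kinase inhibitors and p53 targets were lower in 9 of 11 and higher in 2. Cdkn1a, which encodes p21, had 407, 348 and 403 in RDL day 6 cells, against 1723, 1671 and 1836 in ES cells (-2.14 ± 0.11). The 2 higher members were the inhibitors Cdkn1b (1.02 ± 0.17) and the imprinted Cdkn1c (3.70 ± 0.15). In the list of heat shock and immediate early genes 7 of 14 were higher and 5 lower, beside the same shares over all genes tested. The heat shock gene Hspb1 had 173, 148 and 177 in RDL day 6 cells, against 7994, 7906 and 8801 in ES cells (-5.53 ± 0.45), while the AP-1 genes Fos, Jun (3.25 ± 0.19) and Fosb (3.08 ± 0.22) and the stress factor gene Atf3 (2.39 ± 0.24) were higher.

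At day 6 several early markers of the path to paraxial mesoderm were near the ES level. Msgn1 had 29.04, 31.1 and 25.9 in RDL day 6 cells, against 24.6, 35.9 and 27.0 in ES cells, groups that overlapped (-0.01 ± 0.14, limma adjusted p = 0.96). Hes7, the clock repressor, differed by -0.11 ± 0.17 and the Notch ligand gene Dll3 by -0.03 ± 0.17, and neither was called. Tbx6 had 27.9, 30.3 and 19.6 in RDL day 6 cells, against 16.5, 14.1 and 19.5 in ES cells (0.39 ± 0.13), a small difference of dim values. In the primitive streak and tail bud list 4 of 14 members were higher and 3 lower, against 28.3% and 33.3% over all genes tested. Evx1 (0.26 ± 0.13), Mixl1 (-0.11 ± 0.10), Mesp1 (0.00 ± 0.17) and Cdx2 (-0.17 ± 0.16) were not called, and Cdx1, a Wnt-dependent homeobox gene, was lower with 14.9, 13.9 and 20.02 in RDL day 6 cells, against 126, 108 and 135 in ES cells (-2.23 ± 0.13). Wnt3 and Gsc were too dim to be tested, and T was not analysed here. Wnt5a, a non-canonical Wnt ligand of the tail bud that other mesenchyme also makes, was higher (2.86 ± 0.19). Of the 14 posterior presomitic members 8 were higher and 1 lower. The larger increases among them were in Cyp26a1, which degrades retinoic acid, with 548, 742 and 800.4 in RDL day 6 cells, against 32.1, 38.7 and 27.9 in ES cells (3.95 ± 0.14), and the integrin gene Itga8 (2.83 ± 0.14). Rspo3, the gene of the protein added to the medium, had 100.99, 78.7 and 99.6 in RDL day 6 cells, against 13.9, 13.2 and 15.5 in ES cells (1.97 ± 0.14), and averaged over its probe sets the difference was 1.04. Dll1 had 44.1, 104.6 and 85.0 in RDL day 6 cells, against 20.5, 25.2 and 21.7 in ES cells (1.31 ± 0.25), with replicate 1 lowest in the RDL day 6 group and still above all ES arrays.

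Genes of the anterior presomitic mesoderm and the segment were much higher, in 11 of 14 tested members, with 1 lower and a median of 2.29. Foxc1, a forkhead factor needed for somites, had 683, 1623 and 1578 in RDL day 6 cells, against 10.8, 11.3 and 11.4 in ES cells (5.68 ± 0.28, limma adjusted p = 7.8e-11). Meox1, a homeobox gene of somites, had 1708, 2047 and 1725 in RDL day 6 cells, against 24.6, 26.4 and 40.8 in ES cells (5.43 ± 0.18). Its relative Meox2 had 712, 562 and 558 in RDL day 6 cells, against 7.84, 7.12 and 9.40 in ES cells (4.90 ± 0.17). The groups were far apart in all 3 genes. Foxc2 (5.09 ± 0.28) and Uncx (4.27 ± 0.33), a marker of the posterior part of each somite, followed, and in Foxc1, Foxc2 and Uncx replicate 1 was lowest. Tbx18, a marker of the anterior part, had 161, 225 and 222 in RDL day 6 cells, against 73.0, 65.7 and 61.2 in ES cells (1.43 ± 0.13). Mesp2 (-0.29 ± 0.21) and Ripply2 (0.06 ± 0.11), which set the segment boundary, were not called, and Epha4 was lower (-0.98 ± 0.13).

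Pax3, on whose reporter the cells were sorted, had 252, 366 and 292 in RDL day 6 cells, against 63.5, 60.0 and 53.2 in ES cells, given here as a check of the label. In the somite and dermomyotome list, which includes it, 9 of 13 tested members were higher and 1 lower. Pdgfra, a receptor of somitic mesenchyme, had 1952, 2149 and 1942 in RDL day 6 cells, against 42.8, 29.6 and 38.4 in ES cells (5.36 ± 0.17). Sim1, a marker of the lateral dermomyotome, had 401, 409.5 and 355 in RDL day 6 cells, against 8.37, 10.4 and 9.65 in ES cells (4.18 ± 0.15). Dmrt2, a factor of the dermomyotome, had 85.8, 203 and 119 in RDL day 6 cells, against 7.20, 7.52 and 7.46 in ES cells (2.82 ± 0.26), with replicate 1 the lowest in its group. Tcf15, which drives somites to become epithelial, had 256, 466 and 411 in RDL day 6 cells, against 139, 144 and 172 in ES cells (1.21 ± 0.22). Met, the receptor that migrating muscle precursors need, differed by 1.47 ± 0.14 and Eya1 by 1.01 ± 0.14, while Pdgfc, a ligand, was lower (-0.96 ± 0.23). The RDL day 6 and ES arrays did not overlap in Pdgfra, Sim1, Dmrt2, Tcf15 or Eya1. Pax7, En1 and Alx4 were too dim to be tested. 

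In the myogenic list 6 of 12 were higher and 2 lower, against 28.3% and 33.3% over all genes tested. Myf5, an early muscle determination factor, had 32.0, 35.4 and 32.4 in RDL day 6 cells, against 15.9, 14.1 and 14.8 in ES cells (0.74 ± 0.14), low values on both sides. Actc1, the cardiac actin gene that embryonic muscle also uses, had 594, 405 and 379 in RDL day 6 cells, against 21.2, 16.2 and 14.03 in ES cells (3.97 ± 0.17). Ttn, the gene of the sarcomere protein titin, was lower (-3.91 ± 0.36), and Myod1 and Myog were too dim to be tested. Sclerotome and tendon genes were higher in 5 of 6 tested members and lower in 1. Pax1 had 147, 294 and 294 in RDL day 6 cells, against 19.3, 20.7 and 19.09 in ES cells (2.93 ± 0.22). Sox9, a cartilage factor, had 162, 378 and 246 in RDL day 6 cells, against 27.6, 19.101 and 22.5 in ES cells (2.88 ± 0.22). Both genes were lowest in replicate 1 among the RDL day 6 arrays. Col9a1, a cartilage collagen chain, had 1113, 968 and 1109 in RDL day 6 cells, against 17.7, 10.5 and 15.7 in ES cells (5.31 ± 0.13). Col2a1, the main cartilage collagen, rose too (3.14 ± 0.17) and Pax9 less (0.49 ± 0.13), while the cartilage proteoglycan gene Acan was lower (-0.38 ± 0.12). Scx and Tnmd, markers of tendon, were too dim to be tested.

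**Figure D2:**
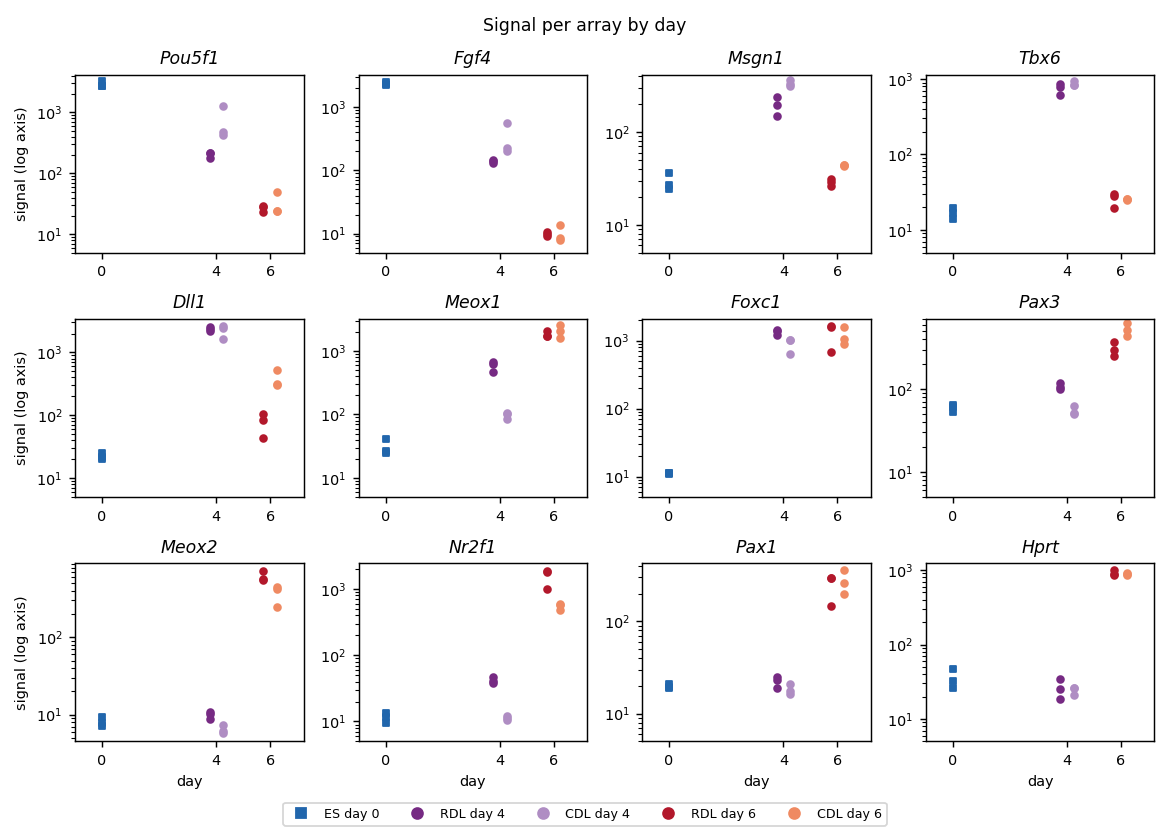
Signal intensity per array (log axis) by day for 12 genes, with ES day 0 as squares and the sorted RDL and CDL groups as circles. Pou5f1 and Fgf4 are lower at each later day, Msgn1, Tbx6 and Dll1 are highest at day 4, and Meox2, Pax1 and Hprt are high in both day 6 groups, which are of line CK35.

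Hox genes give cells their position along the body, in the order of the paralogue groups. All 13 tested genes of groups 1 to 5 and all 9 of groups 6 to 9 were higher in RDL day 6 cells, with medians of 2.10 and 2.35. Without RDL day 6 replicate 1 the count in groups 6 to 9 was 8. Hoxa5 had 433, 485 and 437 in RDL day 6 cells, against 16.7, 20.02 and 14.1 in ES cells (3.98 ± 0.13), the largest difference of the family. Hoxb3 had 297, 496 and 470.4 in RDL day 6 cells, against 33.7, 34.9 and 37.6 in ES cells (3.14 ± 0.19). Hoxa9 had 124, 247 and 227 in RDL day 6 cells, against 13.9, 15.9 and 13.1 in ES cells (2.93 ± 0.18). In both Hoxb3 and Hoxa9 replicate 1 was lowest among the RDL day 6 arrays. Hoxc6 (0.29 ± 0.10) and Hoxa7 (0.54 ± 0.13) rose least. In groups 10 to 13, 9 of 10 genes with a probe set were too dim to be tested. The 1 tested, Hoxc13, with 20.5, 16.1 and 18.99 in RDL day 6 cells, against 107, 112 and 123 in ES cells (-2.02 ± 0.15), passed the filter only with the ES arrays, so its direction was fixed by the filter. With no filter 2 of these 10 genes were higher and 2 lower, with a median of 0.07. The Hox partners and the COUP factors were higher in 8 of 8. Meis1, a cofactor of Hox proteins, had 654, 774 and 838 in RDL day 6 cells, against 11.04, 7.93 and 9.44 in ES cells (5.12 ± 0.16). Nr2f2, a COUP factor of mesenchyme, had 843, 1564 and 1286 in RDL day 6 cells, against 26.7, 25.9 and 24.7 in ES cells (4.97 ± 0.19). Its relative Nr2f1 had 1008, 1873 and 1794 in RDL day 6 cells, against 11.7, 9.41 and 13.6 in ES cells. In Nr2f1 and Nr2f2 replicate 1 was the lowest of the RDL day 6 arrays.

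**Figure D3:**
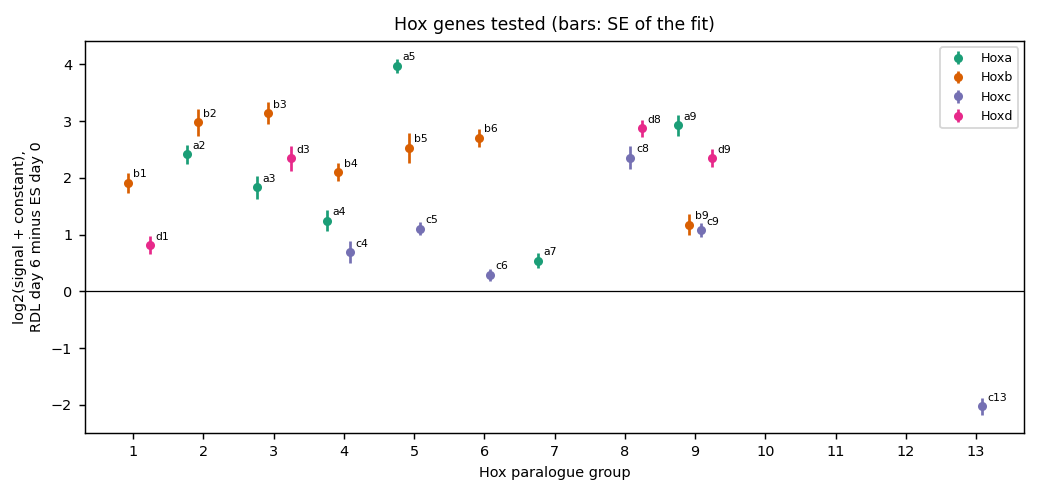
Difference between RDL day 6 and ES day 0 arrays on the log2(signal + constant) scale for each tested Hox gene, ordered by paralogue group and coloured by cluster, with bars for the SE of the fit. The 22 genes of groups 1 to 9 lie above 0, from Hoxc6 at 0.29 to Hoxa5 at 3.98, and Hoxc13, which passed the filter only with the ES arrays, lies at -2.02.

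Mesenchymal genes were broadly higher in RDL day 6 cells. In the list of mesenchyme and epithelial-mesenchymal transition genes 11 of 12 were higher and 1 lower. Cdh2, N-cadherin, had 755, 1248 and 1303 in RDL day 6 cells, against 15.8, 21.1 and 23.1 in ES cells (5.06 ± 0.16). Cdh1, E-cadherin, had 82.7, 139 and 162 in RDL day 6 cells, against 2749.9, 2471 and 2459.7 in ES cells (-4.24 ± 0.22), so the 2 cadherins changed in opposite directions. Twist1 (4.86 ± 0.17), Prrx2 (4.13 ± 0.11) and Snai2 (3.53 ± 0.15), all transcription factors of mesenchyme, were higher. Fn1, fibronectin, was the lower member, with 791, 1661 and 1662 in RDL day 6 cells, against 2881, 2724 and 2436 in ES cells (-1.04 ± 0.21). Among 14 epithelial genes 7 were lower, with Epcam at -2.42 ± 0.14 and Cldn4 at -2.84 ± 0.17, and 5 were higher, with the simple keratin genes Krt8 (2.58 ± 0.16) and Krt18 (3.76 ± 0.13) at the top. Collagens and matrix genes were higher in 18 of 24 and lower in 2. Col1a2, a type I collagen chain, had 1036, 2353 and 2229 in RDL day 6 cells, against 45.1, 38.0 and 52.5 in ES cells (4.94 ± 0.27). Fbn2, a fibrillin of embryonic microfibrils, had 908, 1824 and 1635 in RDL day 6 cells, against 38.3, 33.3 and 32.2 in ES cells (4.90 ± 0.22). Col4a1, a basement membrane collagen, had 559, 1200.3 and 1084 in RDL day 6 cells, against 66.2, 65.6 and 69.1 in ES cells (3.52 ± 0.24). Replicate 1 was again lowest in these 3 genes. The basement membrane gene Nid1 was lower (-1.29 ± 0.35).

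Markers of embryonic fibroblasts, the feeder cells of the maintenance cultures, overlap with mesenchyme genes. Of 11 tested, 10 were higher and 1 lower, and their summed signal lay between 12372 and 13299 in RDL day 6 arrays and between 349 and 380 in ES arrays. Thy1, a surface marker of fibroblasts, was dim, with 22.6, 15.3 and 11.8 in RDL day 6 cells, against 27.9, 24.2 and 32.4 in ES cells (-0.49 ± 0.13). The contractile genes Acta2 (4.42 ± 0.15) and Tagln (4.32 ± 0.19) were higher. A part of feeder cells in the values of matrix genes was not tested.

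Imprinted genes were among the most raised groups, with 17 of 20 higher, 2 lower and a median of 2.96. Mest had 5580.4, 6676 and 6291 in RDL day 6 cells, against 106, 89.5 and 84.1 in ES cells (5.88 ± 0.12). Dlk1, a non-canonical Notch ligand that limits differentiation, had 741, 1511 and 1476 in RDL day 6 cells, against 12.3, 23.5 and 28.1 in ES cells (5.17 ± 0.26). Ndn (4.99 ± 0.09), Peg3 (4.23 ± 0.09) and Grb10 (3.57 ± 0.07), which dampens insulin receptor signalling, were raised as well. Meg3, a noncoding RNA of the Dlk1 region, had 4553, 6339.7 and 6297 in RDL day 6 cells, against 1021, 980.5 and 745 in ES cells (2.63 ± 0.24). Genes expressed from the paternal allele (Igf2, Mest, Peg3) and genes expressed from the maternal allele (Grb10 in most tissues, Meg3, Cdkn1c) were both found among the higher members. Plagl1 (-1.11 ± 0.33) and Phlda2 (-0.91 ± 0.15) were lower, and H19 was not analysed here. In the IGF axis, 7 of 11 were higher and 1 lower. Igfbp4 had 1648, 3051 and 3170.4 in RDL day 6 cells, against 45.3, 35.7 and 52.0 in ES cells (5.48 ± 0.21). The receptor gene Igf1r had 208, 450.3 and 421 in RDL day 6 cells, against 78.7, 56.3 and 60.9 in ES cells (2.19 ± 0.22). Replicate 1 was the lowest of the RDL day 6 arrays in both. Igf1 had 129, 86.7 and 98.3 in RDL day 6 cells, against 15.7, 17.3 and 16.98 in ES cells (1.99 ± 0.10). Igfbp2 went the other way, with 213, 264 and 278 in RDL day 6 cells, against 1979, 1827 and 2538 in ES cells (-3.003 ± 0.43).

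Signalling pathways differed in which of their parts were raised. In the FGF and ERK list 6 of 12 were higher and 2 lower, against 28.3% and 33.3% over all genes tested. Dusp6, an ERK phosphatase, had 1632, 1685 and 1488 in RDL day 6 cells, against 93.2, 108 and 97.9 in ES cells (3.85 ± 0.13). Egr1, which ERK signalling induces, had 1519.9, 1508 and 2507 in RDL day 6 cells, against 14.5, 16.8 and 19.9 in ES cells. Fos, another immediate early gene, had 2383, 2699 and 3852 in RDL day 6 cells, against 54.5, 45.1 and 47.5 in ES cells (5.57 ± 0.15), with replicate 3 highest in both Egr1 and Fos. Etv5, an ETS factor, was lower with 38.4, 129 and 115 in RDL day 6 cells, against 1446, 1412 and 1363 in ES cells (-3.87 ± 0.27), as was Etv4 (-1.10 ± 0.12). The ES medium, but not the RDL medium, held the MEK inhibitor, and only the RDL day 6 cells were sorted. The part of either in these values was not tested.

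Among Wnt targets and feedback genes 8 of 16 were higher and 5 lower, against 28.3% and 33.3% over all genes tested. Frzb, a secreted Wnt antagonist, had 149.7, 198 and 203 in RDL day 6 cells, against 12.96, 8.43 and 15.7 in ES cells (2.97 ± 0.18). Dkk1, another antagonist, had 191, 269.9 and 242 in RDL day 6 cells, against 24.7, 23.4 and 24.8 in ES cells (2.73 ± 0.24). Lef1, a transcriptional effector, had 122, 241 and 207 in RDL day 6 cells, against 34.8, 34.0 and 51.2 in ES cells (1.91 ± 0.21). The groups did not overlap in these 3 genes. Axin2, a general target of the pathway, was lower with 98.9, 124 and 112 in RDL day 6 cells, against 217, 223 and 232 in ES cells (-0.93 ± 0.23). Notum (-2.54 ± 0.13) and Sp5 (-0.89 ± 0.19), further feedback genes, were lower too. The ES medium held CHIRON99021 and the RDL medium Rspo3, so both sides had a Wnt activator. Notch and clock genes were higher in 7 of 17 and lower in 1, with Hey1 (1.54 ± 0.19), Dll1 and Hes1 (1.23 ± 0.29) at the top, and Nrarp, a Notch target, was not called (0.08 ± 0.25).

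The Id genes, known targets of BMP signalling, were bright at day 6, in medium that held LDN. Id1 had 2502, 1837 and 2931 in RDL day 6 cells, against 65.0, 60.2 and 80.8 in ES cells (4.89 ± 0.47). Id2 had 2198, 2090.2 and 2768 in RDL day 6 cells, against 120.2, 115 and 119 in ES cells (4.17 ± 0.34). Id3 had 1360.1, 1258 and 1840.4 in RDL day 6 cells, against 74.8, 72.2 and 81.5 in ES cells (4.06 ± 0.32). All 3 were highest in replicate 3 of the RDL day 6 arrays, while Id4 was lower (-1.97 ± 0.36). The inhibitory Smad7 was lower (-2.04 ± 0.27). The whole list stood at 4 of 10 higher and 3 lower, against 28.3% and 33.3% over all genes tested. In the retinoic acid pathway 9 of 13 were higher and 2 lower. Crabp2, which carries retinoic acid to its receptors, had 1443, 1027 and 958 in RDL day 6 cells, against 29.02, 29.4 and 29.8 in ES cells (4.76 ± 0.15). The receptor gene Rarb had 179, 161 and 165 in RDL day 6 cells, against 13.4, 13.8 and 17.04 in ES cells (2.73 ± 0.18). Aldh1a2, the synthesis enzyme of somites, had 214, 338 and 299.8 in RDL day 6 cells, against 30.1, 47.1 and 39.7 in ES cells (2.51 ± 0.16). The groups did not overlap in these 3 genes. Rarg was lower (-1.36 ± 0.10), as was Stra8 (-2.30 ± 0.19), a retinoic acid target of germ cells. Hedgehog pathway genes were higher in 8 of 10 and lower in 0. The coreceptor gene Gas1 had 1902, 3684 and 3304 in RDL day 6 cells, against 158, 103 and 101.2 in ES cells (4.45 ± 0.23), and the pathway's targets Gli1 (1.36 ± 0.17) and Ptch1 (0.72 ± 0.20) rose less. Shh itself was not called (0.37 ± 0.24). Eph receptors and ephrins, which keep cell groups apart, were higher in 10 of 16 and lower in 3, with Epha3 (2.99 ± 0.11), Efnb2 (2.57 ± 0.26) and Epha7 (2.55 ± 0.12) the highest and Epha2 the lowest (-2.30 ± 0.16).

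**Figure D4:**
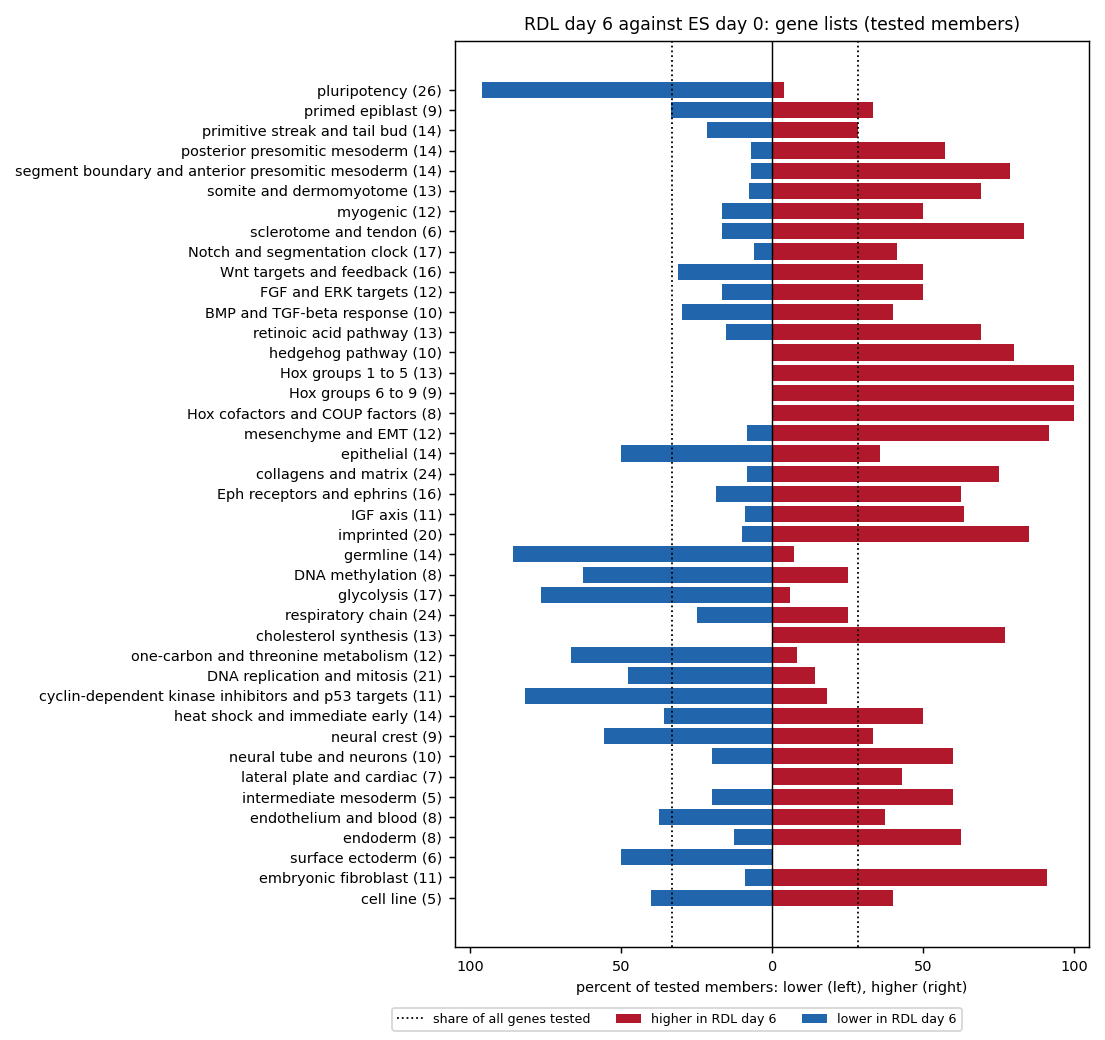
Percent of the tested members of each gene list (number tested in brackets) called higher in RDL day 6 cells (bars to the right) or lower (bars to the left) than in ES cells, with dotted lines at the shares over all genes tested, 28.3% and 33.3%. Hox groups 1 to 9 reach 100% higher and the pluripotency list is lower in 25 of 26.

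Many defining markers of other cell types were too dim to be tested. The shares over all genes tested, 28.3% higher and 33.3% lower, stand as background to the counts of these lists, and some, such as endothelium and blood, lay near them. In the neural crest list Sox10 had 52.8, 53.1 and 49.6 in RDL day 6 cells, against 58.6, 50.3 and 50.9 in ES cells (-0.03 ± 0.10) and overlapped between the groups, Tfap2a (-1.78 ± 0.14) and Foxd3 were lower, and Ets1 (4.99 ± 0.24) and Snai2, which mesoderm also expresses, were higher. The list stood at 3 of 9 higher and 5 lower, with a summed signal of 1432 to 2024 in RDL day 6 arrays and 1346 to 1424 in ES arrays. Neural genes were 6 of 10 higher and 2 lower, the lower ones being Sox2 and Tubb3 (-3.46 ± 0.23). Their summed signal was 704 to 1304 in RDL day 6 arrays and 3649.8 to 4363.5 in ES arrays. Most of the ES sum was Sox2, also a pluripotency gene, with a mean of 3456 in ES cells. Sox1 (-0.14 ± 0.12) was not called, Pax6 differed by 0.25 ± 0.10, and Neurog1, Neurog2 and Olig2 were too dim to be tested. Zic1, which the dorsal somite shares with the neural tube, had 104, 225 and 245 in RDL day 6 cells, against 9.41, 9.44 and 8.11 in ES cells (3.16 ± 0.23).

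Lateral plate and cardiac markers were 3 of 7 higher, led by Gata6 (1.29 ± 0.14), while Nkx2-5 (0.07 ± 0.08), Foxf1 (0.08 ± 0.11) and Hand1 (-0.03 ± 0.12) were not called, and 7 further members, Gata4 and Hand2 among them, were dim. Their summed signal was 447 to 450.3 in RDL day 6 arrays and 277 to 316 in ES arrays. Intermediate mesoderm showed 3 of 5 higher and 1 lower, with Lhx1 at 122, 295 and 259.6 in RDL day 6 cells, against 21.3, 22.8 and 22.3 in ES cells (2.69 ± 0.22), Pax8 and Wt1 were dim, and Pax2 was not analysed here. The list summed to 507 to 923 in RDL day 6 arrays and 501 to 537 in ES arrays. In endothelium and blood, 3 of 8 were higher and 3 lower, and of the lower ones Pecam1 and Tek passed the filter only with the ES arrays. Kdr (1.20 ± 0.13), Flt1 (1.05 ± 0.11) and Lmo2 (1.31 ± 0.18) were higher, Pecam1 (-1.97 ± 0.10) was lower, and Cdh5, Tie1, Tal1 and the embryonic globin genes were dim. The sums overlapped, at 491 to 503 in RDL day 6 arrays and 447 to 506 in ES arrays. Of 8 endoderm genes 5 were higher and 1 lower. Sox17, which endoderm and vessels use, had 49.7, 117 and 119.9 in RDL day 6 cells, against 13.1, 10.95 and 11.04 in ES cells (2.08 ± 0.19). Foxa1 had 69.2, 148 and 112 in RDL day 6 cells, against 15.8, 13.4 and 15.2 in ES cells (2.11 ± 0.17), whereas Afp and Apoa1 were dim and Hnf4a was not called (-0.19 ± 0.10). The summed endoderm signal was 728 to 835 in RDL day 6 arrays and 1094 to 1249 in ES arrays, where Apoe was bright. Surface ectoderm was 0 of 6 higher and 3 lower, with sums of 205 to 225 in RDL day 6 arrays and 814 to 960.3 in ES arrays, and Trp63 and Krt14 were dim. The notochord list had 2 of 4 higher, Foxa2 (1.42 ± 0.13) and Krt8, and Chrd was not called (0.05 ± 0.10). Krt8 is also counted among the epithelial genes. The notochord sums, with Krt8 in them, were 957 to 1110.1 in RDL day 6 arrays and 225 to 239 in ES arrays. Foxj1 was dim, and Noto and T were not analysed here. The part of other cells in the sorted samples was not tested.

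RDL day 6 cells were also compared directly with RDL day 4 cells, which differ from them in day, line, strain and sort. Of the 12409 genes 1716 (13.8%) were higher and 2127 (17.1%) lower at day 6. In the posterior presomitic list 13 of 14 members were lower and 1 higher, with a median of -3.01, and in the streak and tail bud list 13 of 14 were lower and 0 higher (median -2.08). Tbx6 had 27.9, 30.3 and 19.6 in RDL day 6 cells, against 863, 775 and 616 in RDL day 4 cells (-4.31 ± 0.13, limma adjusted p = 1.3e-12). Dll1 had 44.1, 104.6 and 85.0 in RDL day 6 cells, against 2354, 2519 and 2186 in RDL day 4 cells (-4.77 ± 0.25), and Hes7 differed by -3.89 ± 0.17. Rspo3 had 100.99, 78.7 and 99.6 in RDL day 6 cells, against 1824, 1642 and 1735 in RDL day 4 cells (-4.05 ± 0.14). Msgn1, the reporter gene of the day 4 sort, had 29.04, 31.1 and 25.9 in RDL day 6 cells, against 241, 198 and 148 in RDL day 4 cells. It is among the 13 lower members of the posterior presomitic list, so the day 4 sort bears on that count. The largest decreases by the naming rule were Phlda2 (-5.56 ± 0.15), Dll1, the skeletal actin gene Acta1 (-4.58 ± 0.16), the galectin gene Lgals3 (-4.498 ± 0.11), Nrarp (-4.45 ± 0.25) and Mid1 (-4.35 ± 0.20).

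The largest increases over RDL day 4 cells were Igfbp5 (6.68 ± 0.22), Tgfbi (5.47 ± 0.19), a matrix protein induced by TGF-beta, Nr2f1 (4.79 ± 0.18), Meox2 (4.78 ± 0.17), Col3a1 (4.63 ± 0.12) and Hprt (4.597 ± 0.16). Tgfbi had 1751, 2884 and 3111 in RDL day 6 cells, against 46.1, 38.8 and 48.7 in RDL day 4 cells. Sclerotome genes were higher in 5 of 6, with Pax1 at 147, 294 and 294 in RDL day 6 cells, against 22.96, 19.14 and 25.04 in RDL day 4 cells (2.82 ± 0.22), and hedgehog pathway genes in 7 of 10. In the pluripotency list 11 of 26 were lower at day 6 and 0 higher, with Fgf4 at -2.77 ± 0.25 and Pou5f1 at -2.45 ± 0.30, while Nanog was already dim at day 4 (-0.22 ± 0.83, not called). Against RDL day 4 the Hox groups 1 to 5 were not higher in any member and lower in 6 of 13, Hoxb1 most (-4.34 ± 0.18). In groups 6 to 9 Hoxa9 (1.52 ± 0.18) and Hoxc9 (0.88 ± 0.13) were higher, Hoxd9 (-1.24 ± 0.16) and Hoxb6 (-0.45 ± 0.16) were lower, and the other 5 were not called. Foxc1 (-0.14 ± 0.28) and Foxc2 (0.03 ± 0.28) did not pass the test between these days. The comparisons with ES cells and with RDL day 4 cells share the RDL day 6 arrays.

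With line, day and sort the same, RDL day 6 cells differed from CDL day 6 cells in fewer genes: 490 genes (3.95%) were higher and 456 (3.67%) lower in RDL. These counts depended on the fit, with 262 and 182 when only the 2 groups were fitted and 2390.0 and 1764 with array weights. The 3 arrays of each group did not overlap in 10.3% of genes upward and 9.6% downward. Asb4, an imprinted gene, had 1371, 976 and 1121 in RDL day 6 cells, against 115, 94.2 and 141 in CDL day 6 cells (3.18 ± 0.15, limma adjusted p = 2.3e-09). Fli1, an ETS factor, had 219, 281 and 269.9 in RDL day 6 cells, against 25.6, 12.2 and 24.4 in CDL day 6 cells (3.03 ± 0.13). Otx2, an anterior homeobox factor, had 184, 176 and 216 in RDL day 6 cells, against 15.9, 17.5 and 17.6 in CDL day 6 cells (2.79 ± 0.24). The groups were apart in all 3 genes, and in Otx2 the CDL day 6 arrays also lay below the ES arrays given above. Tgfbi (2.57 ± 0.19), Epha3 (2.36 ± 0.11) and Lum (2.22 ± 0.14), a matrix proteoglycan, completed the highest 6. Among mesenchyme and cartilage genes Prrx1 (2.03 ± 0.12), Snai2 (1.79 ± 0.15), Col9a1 (1.91 ± 0.13) and Sox9 (1.27 ± 0.22) were higher in RDL, and 8 of 24 collagens and matrix genes were higher and 1 lower. In the somite list Pdgfra (1.45 ± 0.17) and Sim1 (1.04 ± 0.15) were higher, and Tcf15 (-1.495 ± 0.22) and Dmrt2 (-0.88 ± 0.26) lower. Of 20 imprinted genes 7 were higher and 0 lower, with Dlk1 (2.06 ± 0.26) next to Asb4. Igf1 was also higher (1.31 ± 0.10).

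The largest decrease against CDL day 6 cells was in Nupr1, a stress response gene, with 72.7, 44.9 and 39.6 in RDL day 6 cells, against 839, 446 and 722 in CDL day 6 cells (-3.38 ± 0.23). Dll1 had 44.1, 104.6 and 85.0 in RDL day 6 cells, against 299.6, 529 and 315 in CDL day 6 cells (-2.14 ± 0.25). Aldh1a2 had 214, 338 and 299.8 in RDL day 6 cells, against 1120.0, 1219 and 1022 in CDL day 6 cells (-1.95 ± 0.16). Lmo2 (-1.93 ± 0.18), Klf4 (-1.92 ± 0.25) and the arginine transporter gene Slc7a3 (-1.88 ± 0.23) were next. Of 17 Notch and clock genes 7 were lower and 0 higher. The hedgehog genes Shh (-1.71 ± 0.24), Ptch1 (-1.22 ± 0.20) and Gli1 (-0.78 ± 0.17) were lower, and Pax3 too (-0.76 ± 0.15), although both groups were sorted on its reporter. Cyp26a1, which breaks down retinoic acid, was higher in RDL (1.72 ± 0.14), in contrast to Aldh1a2. Of 16 Wnt targets and feedback genes 3 were higher and 4 lower, with Dkk1 at 1.84 ± 0.24, Sfrp1 at 1.56 ± 0.14, Nkd1 at -1.48 ± 0.23 and Tnfrsf19 at -1.74 ± 0.12. Of the 12 genes most raised over ES cells, Col3a1 (0.66 ± 0.12), S1pr3 (0.57 ± 0.13) and Nr2f1 (1.43 ± 0.18) were higher and Arg1 (-0.54 ± 0.09) lower in RDL than in CDL. Of the arrays left out in turn, RDL day 6 replicate 1 moved the calls of this comparison most: without it 868 genes were higher and 647 lower.

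**Figure D5:**
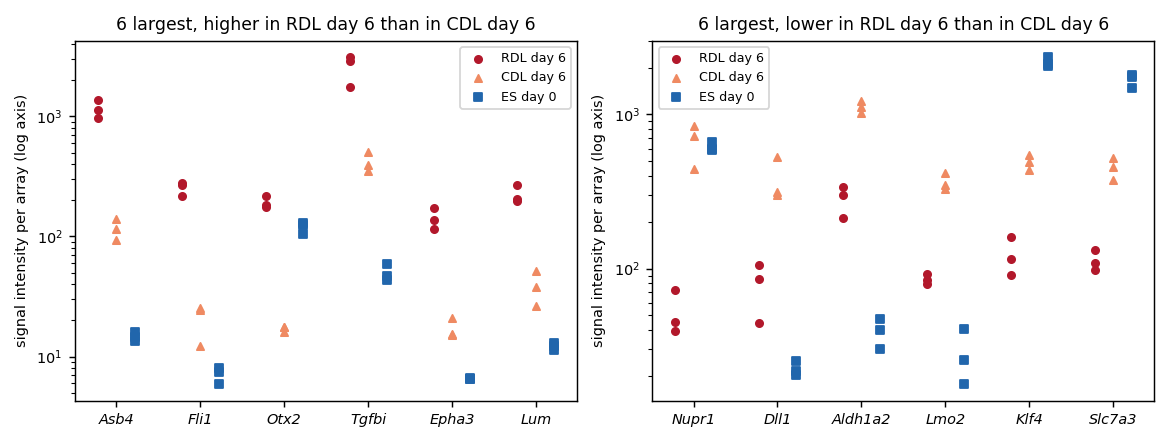
Signal intensity per array (log axis) of the 6 genes with the largest increases and the 6 with the largest decreases in RDL day 6 (circles) against CDL day 6 (triangles), with ES day 0 arrays (squares) beside them. Asb4, Fli1, Tgfbi, Epha3 and Lum are lowest in ES cells, while Klf4 and Slc7a3 are brightest there.

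The 6 arrays of line CK35 and the 9 of line E14 also differ in day, so genes that split the lines cannot be told apart from genes that split day 6 from earlier days. In 883 genes (7.12%) all 6 CK35 arrays lay above all 9 E14 arrays, and in 983 (7.92%) below. Hprt, a purine salvage enzyme that common E14 sublines lack, had 1008, 855 and 887 in RDL day 6 cells, against 46.8, 26.5 and 32.1 in ES cells (4.30 ± 0.16). The other genes with the widest gaps upward were Igfbp5, Col3a1, Meox2 and the protease gene Fap, which had 506, 444 and 356 in RDL day 6 cells, against 8.58, 12.1 and 7.13 in ES cells (4.35 ± 0.14). Downward they were Mid1, with 65.6, 51.4 and 61.4 in RDL day 6 cells, against 977, 985 and 648 in ES cells (-3.59 ± 0.20), Mpzl2 (-3.66 ± 0.09), the interferon-induced Ifi35 (-3.82 ± 0.12), Pcolce2 (-2.77 ± 0.13) and the Nodal antagonist gene Lefty2 (-3.13 ± 0.17). Nnt, a mitochondrial enzyme, had 474, 592 and 614 in RDL day 6 cells, against 306, 304 and 288 in ES cells (0.87 ± 0.13).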

How the data were processed

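Total RNA was labelled with biotin after 2 amplification cycles and hybridised to Affymetrix mouse arrays, per the labels' protocols. The deposited table holds the authors' linear signal intensity of 45101 probe sets on 15 arrays. MAS5 is named in the submitters' processing notes, and its version and role and a genome build are not given in the sources used here. RNA came from Trizol or a column kit, with no record per sample. Platform annotation gave 34945 probe sets 1 symbol, 932 several and 9160 none, besides 64 control probe sets.

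Probe sets above their array's median in at least 3 of 15 arrays were kept, and the probe set of highest mean signal, among those with 1 symbol, stood for each gene, which left 12409 of 18193 genes tested and 5784 too dim. limma (3.58.1, R 4.3.3) was fitted to log2(signal + 12.6), the constant being the median of the arrays' 25th percentiles, with 5 group means, an intensity trend, 10 residual degrees of freedom and Benjamini-Hochberg adjustment over all genes tested. The script was tested on simulated data. Tables and plots used Python 3.11.15, pandas 2.3.3, numpy 2.4.6 and matplotlib 3.10.9.

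Groups came from the sample titles. Genes named are the 12 largest called differences each way against ES cells and the 6 largest each way against the other groups, among genes whose groups did not overlap, passing over clone and predicted-gene symbols. Added to these are the 5 widest gaps each way between lines, up to 6 members of each of 43 gene lists, members whose role makes a value that did not pass informative, the sort reporters, Rspo3, Hprt and Nnt. Some further list members were named for their role after their values were seen. The members and lists were chosen with earlier results of these data known. Of 655 list entries 606 matched a gene with a probe set, and some genes stand in more than 1 list. List counts and medians are descriptions and carry no test of the list.

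Same-numbered residuals correlated at 0.28, 0.26 and 0.22 between RDL day 6 and RDL day 4, each array best with its own number. A rule that every pair exceeds 0.1 was met there. It was not met against ES cells (0.02, -0.12 and 0.14) or CDL day 6 (0.61, 0.59 and -0.24). The titles give replicate numbers and no pairing, RDL day 6 and RDL day 4 are of different lines, and the main fit paired no samples. Alternatives covered the constant, the filter, scaling, probe set choice, array weights, the arrays in the fit, the replicate block and each replicate left out. Probes, build-dependent positions and the authors' summarisation were not re-examined. Promoter sequences came from RefSeq (GRCm38.p6).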

Additional observations from a re-analysis of the deposited data

Results flagged for a closer look

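In 4 of the 12 genes most raised over ES cells, RDL day 6 and CDL day 6 arrays differed by the direct test in the limma fit, so their differences from ES cells were not the same in both media. Col3a1 differed by 0.66 (adjusted p = 0.0022), S1pr3 by 0.57 (adjusted p = 0.015), Nr2f1 by 1.43 (adjusted p = 8.8e-05) and Arg1 by -0.54 (adjusted p = 0.00082) on the log2 scale, RDL minus CDL. Nr2f1 had 1008, 1873 and 1794 in RDL day 6 cells, against 474, 583 and 599.7 in CDL day 6 cells, and only Nr2f1 of the 4 differed by more than 1 log2 unit. Arg1 had 2126, 1883 and 1763 in RDL day 6 cells, against 2727, 2832 and 2820.1 in CDL day 6 cells.

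Probe sets without a gene symbol lie outside the comparisons of genes and carried signal. Of 3060 such probe sets that passed the filter, 1076 were higher in RDL day 6 cells than in ES cells and 480 lower. At least 2-fold differences were found in 347 and 129. Over the 12409 genes tested, 3513 (28.3%) were higher and 4133 (33.3%) lower, with 1283 (10.3%) and 1454 (11.7%) at least 2-fold.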

How the results depend on the processing

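The alternatives gave 1006 values for the genes with the largest differences and for Pax3, Msgn1, Rspo3, Hprt and Nnt. All kept their side of the threshold, and all their direction except Msgn1, which was never called and ran from -0.09 to 0.10. Other list members were not run one by one. The mean over probe sets took Igfbp5 to 3.65 against ES cells and 3.73 against RDL day 4, Igf2 to 4.48, Fgf4 to -4.24 and Rspo3 to 1.04. Of 152 counts of calls over all genes 144 stayed within 1.5 times the main count, and the 8 that did not belong to RDL day 6 against CDL day 6. There the filter at the 75th percentile left 325 genes higher, a fit of only the 2 groups gave 262 higher and 182 lower, array weights gave 2390 and 1764, and leaving out CDL day 4 replicate 1 and RDL day 6 replicate 1 together gave 1023 and 755. Leaving out 1 replicate at a time gave 356 to 868 genes higher (868 without RDL day 6 replicate 1) and 308 to 647 lower in that comparison. The same gave 3201 to 3619 higher and 3770 to 4124 lower against ES cells, 1252 to 1363 and 1413 to 1517 of them at least 2-fold, and 1355 to 1675 higher and 1570.0 to 2139 lower against RDL day 4. The replicate block gave 3590.0 higher and 4262 lower against ES cells, 1880.0 and 2334 against RDL day 4, and 594 and 551 against CDL day 6, and changed no call of those genes. Of the list medians 755 stayed within 0.5, 37 moved further and 2 reversed: neural crest stood at 0.49 over 5 members with the filter at the 75th percentile, against -0.57, and with no filter surface ectoderm stood at 0.042 over 10 members, against -0.87, since the members tested differed. With no filter the medians also moved to 0.36 for sclerotome and tendon, 0.39 for somite and dermomyotome, 0.34 for the retinoic acid pathway, 0.74 for the IGF axis, 1.76 for Hox groups 6 to 9, 0.14 for endoderm, 0.37 for notochord and -1.78 for germline genes. Medians nearer 0 also changed sign under some setting against ES cells: primed epiblast (-0.25, to 0.63) and BMP and TGF-beta response (-0.05, to 0.49) with the same filter, Wnt targets and feedback (0.36, to -0.13), endothelium and blood (-0.13, to 0.05) and the cell line list (-0.05, to 0.23) with no filter. Other causes were not tested. Signal near background limits what can be said of dim genes, and the difference of a gene with one dim side is understated by the added constant.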

Other observations

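Tested genes on the X chromosome (392) had a median difference of 0.17 between RDL day 6 and ES cells, whereas the medians of the autosomes lay between -0.09 and 0.03. Of these X genes 43.6% were higher and 31.4% lower, against 28.3% and 33.3% over all genes tested. Against RDL day 4 the X median was 0.04, with 23.5% higher and 16.8% lower, against 13.8% and 17.1% over all genes tested. X-linked genes stood at both ends of the comparison: Fndc3c1 (5.91 ± 0.15), Amot (5.11 ± 0.13), Hs6st2 (5.09 ± 0.10) and Hprt (4.30 ± 0.16) were higher and Trap1a (-6.45 ± 0.67), Mageb16 (-5.93 ± 0.61) and Nr0b1 (-5.68 ± 0.53) lower. Xist, the noncoding RNA that coats an inactive X, had 64.9, 81.4 and 63.6 in RDL day 6 cells, against 277, 244 and 193 in ES cells (-1.60 ± 0.15). Of the Y-linked genes Eif2s3y had 504, 491 and 499.9 in RDL day 6 cells, against 882, 875 and 783 in ES cells (-0.75 ± 0.12) and Uty 144, 111 and 109 in RDL day 6 cells, against 134, 141 and 102 in ES cells (-0.05 ± 0.17, not called). The lines differ between these groups, and their part was not tested. Amot, Hs6st2 and Mageb16 were chosen after their values were seen.

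Within the RDL day 6 group, Auts2 was the gene lowest in replicate 1 against replicates 2 and 3. Auts2 had 91.6, 367 and 401 in the 3 arrays (CDL day 6: 276, 493 and 324), and Fzd7, a Wnt receptor, had 316, 994 and 842 (CDL day 6: 787, 939.6 and 809). Dus4l, higher in replicate 1, had 94.7, 32.5 and 28.5 (CDL day 6: 47.0, 17.1 and 30.7). Residuals of RDL day 6 replicate 1 correlated at 0.61 with CDL day 6 replicate 1, -0.64 with its replicate 2 and 0.34 with its replicate 3. By lists, the median of replicate 1 minus the mean of the other two was -0.74 for the IGF axis and for the FGF and ERK targets, -0.63 for the hedgehog pathway and 0.30 for embryonic fibroblast markers. These genes were chosen after their values were seen.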
